A study of Mus musculus with 9 samples.

Results

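Matrix metalloproteinases (MMPs), the ADAMTS proteases and their tissue inhibitors (TIMPs) were examined by RNA sequencing in HC11 cells, a line of mouse mammary epithelium that can be driven to make milk protein in culture. Members were taken by gene symbol, as every numbered Mmp, Adamts and Timp gene of the count table, which gave 46 of 55228 genes. Of these, 23 were MMPs, 19 were ADAMTS proteases and 4 were TIMPs. The comparison asks how the RNA of these genes differed between parental cells and lines edited at *Vangl2*, a gene of planar cell polarity. The 9 cultures fall into 3 groups of 3, *WT* (parental HC11), *KD1* and *KD2*. The labels call both edited lines *Vangl2* knockouts, and the study uses knockout as well as knockdown for them. Each was made with CRISPR/Cas9 and grown from a single clone, *WT* was the uncloned parental population, and a cloned control without a guide was not analysed here. A difference between a line and *WT* therefore cannot be told apart from a difference between a clone and a population. All cultures were undifferentiated and grew in RPMI with 10% fetal bovine serum, 5 µg/mL insulin and 10 ng/mL EGF, with no other treatment.

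MMPs and ADAMTS proteases are zinc-dependent enzymes that cut proteins of the extracellular matrix, and most are made as inactive precursors. TIMPs bind their active sites, so that a cell's RNA for proteases and for inhibitors together gives a first view of what it could release, though not of the activity of any enzyme. In the mammary gland these enzymes and inhibitors are known for their parts in duct branching and in the loss of the epithelium after weaning. RNA levels say nothing of secretion, activation or inhibition, none of which was measured here.

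Depth ranged from 19231428 to 28360592 counts per culture. Levels are given as read counts where they are low and otherwise in CPM (counts per 1000000 counts of the TMM-scaled library). Comparisons between members use CPM per kilobase of exon (RPKM) unless given in counts. Markers of cell types are ordered by CPM, not per length. A gene was called where the edgeR adjusted p was under 0.05 and the log2 fold change was above 1 or below -1, with 3 cultures a group and the adjustment over all 15253 genes tested. Nothing in the labels says that cultures of a line were started separately, so p-values measure the spread between these cultures, which may be technical.

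Libraries standing apart were looked for before any gene was compared. *KD2* replicate 3 differed from *KD2* replicates 1 and 2 by 17.4 and 22.1 chi-square units per degree of freedom, against 1.74 between replicates 1 and 2. *WT* replicate 1 differed from *WT* replicates 2 and 3 by 13.1 and 10.7, against 3.38 between those 2 libraries. The *KD1* libraries lay 1.37 to 1.81 apart. Counts of called members are therefore also given without *KD2* replicate 3 and without *WT* replicate 1.

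*Vangl2* itself had 3.38, 3.96 and 4.20 CPM in the *WT* cultures, 2.77, 1.89 and 2.78 CPM in *KD1*, and 3.64, 3.93 and 4.43 CPM in *KD2*. The *KD1* cultures lay below the *WT* cultures, while the *KD2* cultures overlapped them. The log2 fold change was -0.63 ± 0.171 (SE) in *KD1* (edgeR adjusted p = 0.0058) and 0.05 ± 0.162 in *KD2* (edgeR adjusted p = 0.81). RNA of *Vangl2* was thus not lower in the cultures labelled *KD2*, and protein was not analysed here. *KD1* and *KD2* are used below as the names on the labels, and every direction given for *KD2* is one in cultures whose *Vangl2* RNA was at the *WT* level.

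All 6 epithelial markers (*Epcam*, *Cdh1*, *Krt8*, *Krt18*, *Krt5* and *Krt14*) were detected in every culture, and none was called in either line. Their summed level was 5169 ± 307 CPM for *WT* (SD, n = 3), 5523 ± 74.6 CPM for *KD1* and 3167 ± 357 CPM for *KD2*, with *Krt5* the most abundant. In *KD2*, *Krt5*, *Krt14*, *Cdh1* and *Epcam* stood at log2 fold changes of -0.96, -0.90, -0.69 and -0.36. *Krt8* and *Krt18* stood at 0.76 and 0.13 there. Markers of other cell types were low beside the epithelial sums, but some moved with a line. The 8 fibroblast markers summed to 14.0, 19.9 and 17.1 CPM in *WT*, 10.2, 9.28 and 8.11 CPM in *KD1*, and 88.0, 88.1 and 97.6 CPM in *KD2*. Most of the sum in *KD2* came from *Pdgfrb*, at 66.8 ± 5.02 CPM. *Pdgfra* stood at 7.96, 8.4 and 16.4 CPM in *WT*, *KD1* and *KD2*. In the same order *Col1a2* stood at 1.17, 0 and 3.09 CPM, and *Col1a1* at 7.03, 0.571 and 4.38 CPM. *Fap* had 0, 1 and 0 counts in *WT*, 2, 2 and 1 in *KD1*, and 7, 8 and 9 in *KD2*. *Dcn* had 6, 3 and 0 counts in *KD2* and a single count elsewhere. *Lum* had 3 counts in each *KD2* culture and 0 elsewhere, and *Thy1* had a single count, in *KD2*. Of the 4 fibroblast markers tested, 3 were called lower for *KD1* and 3 higher for *KD2*, beside 7.49% and 14.5% of all genes tested. Of the 4 myoepithelial markers, all tested, 2 were called lower in *KD1* and 2 higher in *KD2*, beside 7.49% and 14.5% of all genes tested. They summed to 8.46 ± 1.06, 0.646 ± 0.0177 and 9.09 ± 0.525 CPM in *WT*, *KD1* and *KD2*, with *Oxtr* the most abundant in *WT* and *KD2* and *Acta2* in *KD1*. Single markers went different ways. In the same order *Oxtr* stood at 7.78, 0.0774 and 4.08 CPM, and *Myh11* at 0.422, 0.115 and 0.344 CPM. *Acta2* stood at 0.165, 0.31 and 1.54 CPM, and *Cnn1* at 0.0942, 0.143 and 3.12 CPM. Of 8 leukocyte markers, *Ptprc*, *Cd3e* and *Ly6g* had at most 3 counts in any culture, *Adgre1* had none, and the sum was 0.561 ± 0.0952, 1.17 ± 0.11 and 0.763 ± 0.316 CPM in that order, led by *S100a8*, the only leukocyte marker tested, which was not called. *Csf1r* had 1, 2 and 2 counts in *WT*, 13, 6 and 7 in *KD1*, and 2, 3 and 0 in *KD2*, and *Itgam* had 0 in *WT* and 1 to 5 in the cultures of both lines. The 4 endothelial markers, led by *Pecam1*, summed to 2.21 ± 0.246, 5.18 ± 0.316 and 1.85 ± 0.371 CPM. *Pecam1*, the only marker of these with enough counts to be tested, was called higher in *KD1* and lower in *KD2*. *Cdh5* had 0, 0 and 1 counts in *WT*, 5, 7 and 5 in *KD1*, and 22, 24 and 7 in *KD2*. *Tek* had 1, 1 and 0 counts in *WT*, 0, 1 and 1 in *KD1*, and 7, 8 and 2 in *KD2*. The 3 adipocyte markers summed to 0.198 ± 0.0872, 2.60 ± 0.448 and 0.34 ± 0.264 CPM, led by *Fabp4* in every culture but *KD2* replicate 3, and *Fabp4* was called higher in *KD1*, while *Adipoq* and *Plin1* had at most 3 counts in any culture. The part of such markers in the results on proteases was not tested. In bulk samples, fewer cells that make an RNA and less of that RNA per cell cannot be told apart.

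Of the 46 members, 26 had enough counts to be tested: 11 MMPs, 12 ADAMTS proteases and 3 TIMPs. In *KD1*, 6 members were called higher than *WT* and 8 lower, which is 23.1% and 30.8% of those tested, where 9.34% and 7.49% of all genes tested were called in those directions. In *KD2*, 9 were called higher and 3 lower (34.6% and 11.5%), against 14.5% and 6.71% of all genes. Set against *KD1*, *KD2* had 12 members called higher and 3 lower (46.2% and 11.5%), against 14.7% and 8.58% of all genes. The shares of members lower in *KD2*, which rest on 3 genes each, were thus near those of all genes, and the other shares were above them. A gene can enter the test through the group in which it is high, as *Mmp10*, *Adamts3* and *Mmp23* did with 10 counts in every culture of only 1 group. *Mmp9*, *Mmp13* and *Adamts9* had at least 10 counts in every culture of both lines and fewer in every *WT* culture. In all 9 cultures, 17 members had at least 10 counts. Among these, 2 were called higher and 4 lower in *KD1*, beside 6.23% and 4.5% of all genes under that filter. In *KD2* 7 were then higher and 1 lower, beside 9.54% and 4.27%.

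The same *WT* cultures served for both lines, so that the lines' values against *WT* share them. Over the members tested, log2 fold changes had a median of -0.13 in *KD1* and 0.57 in *KD2*, where the median of all genes tested was -0.03 and 0.01. For the ADAMTS proteases alone it was 0.06 and 0.94, for the MMPs -0.25 and 0.38, and for the 3 TIMPs tested -0.31 and -0.67. Scaling by library size alone moved the median of all genes in *KD2* from 0.01 to 0.12. Without *KD2* replicate 3 the counts in *KD2* were 9 higher and 3 lower, and without *WT* replicate 1 they were 10 and 4, with 6 and 8 in *KD1*. Of all genes, 15.3% and 6.5% were called in *KD2* without *KD2* replicate 3. Without *WT* replicate 1, where 15676 genes were tested, the shares were 15.3% and 6.55% in *KD2*, and 9.59% and 7.2% in *KD1*.

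**Figure D1:**
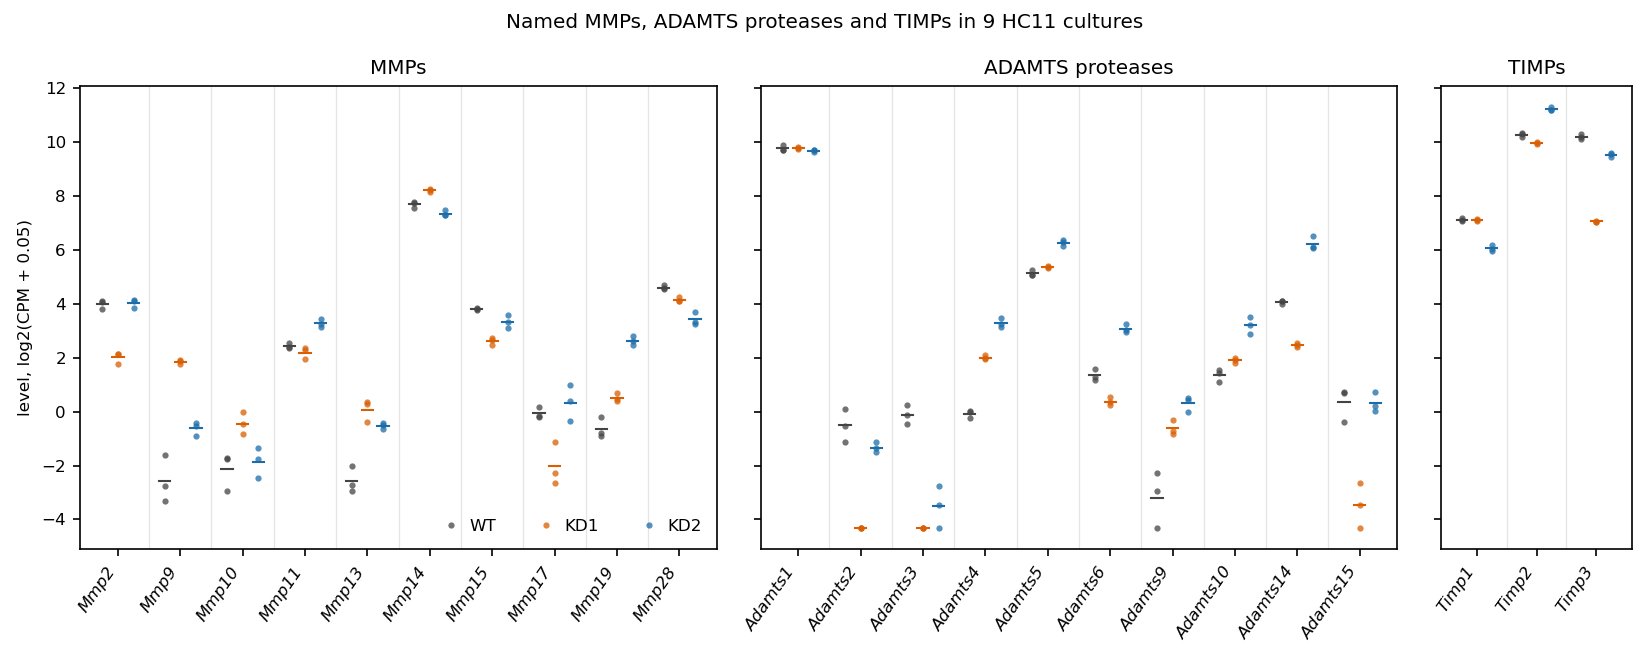
Levels of the 23 members named by rule in each of the 9 cultures, as log2(CPM + 0.05), with a point for each culture and a bar for the mean of the 3 cultures on that scale. *Timp3* in *KD1* (131 to 135 CPM) sits far below *WT* (1100 to 1256 CPM), and *Adamts2* and *Adamts3* in *KD1* sit on the floor of the plot, at 0 counts.

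Per length, the most abundant members in *WT* were *Timp2* at 317 ± 19.9 RPKM (SD, n = 3), *Adamts1* at 163 ± 11.6 RPKM, *Timp1* at 156 ± 7.27 RPKM and *Timp3* at 144 ± 9.62 RPKM. The ranges over cultures of *Adamts1* and *Timp1*, and of *Timp1* and *Timp3*, overlapped, so that these neighbours in the order did not differ beyond their spread. *Mmp14* followed at 34.6 ± 2.67 RPKM and *Mmp28* at 6.25 ± 0.298 RPKM. Undifferentiated HC11 cells thus held far more RNA for 3 inhibitors, for a single ADAMTS protease and for a single membrane-anchored MMP than for the other members.

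The gelatinases, which cut denatured collagen and the collagen IV of basement membranes, moved in opposite directions in *KD1*. *Mmp9* had 1, 7 and 2 counts in *WT*, 91, 92 and 93 in *KD1*, and 12, 21 and 13 in *KD2*. All *KD1* and all *KD2* cultures lay above *WT*, and *KD1* above *KD2*. On the log2 scale the difference from *WT* was 4.50 ± 0.313 (SE) in *KD1* (edgeR adjusted p = 2.6e-08) and 1.96 ± 0.428 in *KD2* (edgeR adjusted p = 0.0011). The size rests on few *WT* reads, 7 of them in replicate 2, without which the values were 5.50 and 2.96.

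*Mmp2*, the other gelatinase, which is often made by stromal cells, had 13.9, 16.8 and 17.0 CPM in *WT*, 4.36, 3.34 and 4.36 CPM in *KD1*, and 17.4, 14.1 and 16.9 CPM in *KD2*. Only the *KD1* cultures stood apart, all of them lower. The log2 fold change was -1.99 ± 0.132 in *KD1* (edgeR adjusted p = 1.5e-08) and 0.01 ± 0.114 in *KD2* (edgeR adjusted p = 0.92). Per length, *Mmp2* stood at 4.72 RPKM and *Mmp9* at 0.0404 RPKM in *WT*, and at 1.19 and 1.01 RPKM in *KD1*. In *KD1* the lowest of the 3 values of *Mmp2*, 0.991 RPKM, lay within the range of *Mmp9*, 0.949 to 1.06 RPKM, so the gelatinases that were far apart in *WT* were close in *KD1*.

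Collagenases and stromelysins sit mostly in a cluster on chromosome 9. Of the members, 10 lie there within 427 kb (GRCm38, chr9:7272514-7699585), and 2 of them, *Mmp13* and *Mmp10*, had enough counts to be tested. The counts of the whole cluster summed to 9, 6 and 13 in *WT*, 53, 40 and 58 in *KD1*, and 36, 40 and 33 in *KD2*. Every *KD1* and *KD2* culture lay above every *WT* culture, at a level that is very low in all groups, 0.445 ± 0.198 CPM for *WT* (SD, n = 3), 1.96 ± 0.383 CPM for *KD1* and 1.47 ± 0.146 CPM for *KD2*. Around the cluster, the 12 other genes tested within 2 Mb had a median log2 fold change of -0.28 in *KD1* and 0.16 in *KD2*, with 2 called higher for *KD1* and 1 called lower, while for *KD2* 5 were called, all higher, where the shares of all genes were those given above (9.34% and 7.49% in *KD1*, 14.5% and 6.71% in *KD2*).

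*Mmp13* had the most counts of the cluster in both lines, followed by *Mmp10* in *KD1* and *Mmp12* in *KD2*. *Mmp13*, a collagenase that cuts fibrillar collagen, had 2, 2 and 4 counts in *WT*, 33, 18 and 29 in *KD1*, and 17, 20 and 12 in *KD2*. Every culture of both lines lay above *WT*, with a log2 fold change of 3.02 ± 0.395 in *KD1* (edgeR adjusted p = 1.7e-05) and 2.35 ± 0.434 in *KD2* (edgeR adjusted p = 2.7e-04). *Mmp10*, a stromelysin that cuts many matrix proteins and can activate other MMP precursors, had 5, 2 and 5 counts in *WT*, 14, 17 and 23 in *KD1*, and 6, 4 and 7 in *KD2*. Only *KD1* stood apart from *WT*, with a log2 fold change of 1.89 ± 0.442 (edgeR adjusted p = 0.0023), while in *KD2* it was 0.29 ± 0.56 (edgeR adjusted p = 0.67). *KD2* lay below *KD1* by its own test, at -1.60 ± 0.406 (edgeR adjusted p = 0.0031).

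*Mmp12* and *Mmp3* did not pass the filter on low counts, and their reads came mostly from *KD2*. *Mmp12*, known as macrophage elastase, had 2, 1 and 2 counts in *WT*, 1, 2 and 2 in *KD1*, and 8, 10 and 9 in *KD2*. Over the summed counts this was a ratio of *KD2* to *WT* of 4.67 (exact 95% interval 1.77 to 15.5, for counting error only). *Mmp3*, a stromelysin long studied in mammary branching and involution, had 0, 0 and 2 counts in *WT*, 0, 0 and 1 in *KD1*, and 5, 5 and 4 in *KD2*, a ratio of *KD2* to *WT* of 6.06 (1.39 to 54.9). In both genes each *KD2* culture lay above all others, and without a filter both were called higher in *KD2* than in *WT*, as *Mmp12* was with DESeq2. Yet *Mmp3* and *Mmp10* share 8.37% of the 50-base windows of *Mmp10*, so reads could be split between them. *Mmp1b*, a collagenase of rodents, had 4, 2 and 3 counts in *KD1*, a single count in *WT* and 0 in *KD2*. It shares 19.7% of its 50-base windows with other genes, above all *Mmp1a*. *Mmp12* overlaps 10.8% of the exon bases of *Mmp1b* on the other strand, so these few reads carry the same limit. The other 5 genes of the cluster, *Mmp1a*, *Mmp7*, *Mmp8*, *Mmp20* and *Mmp27*, had at most 1 count in any culture.

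**Figure D2:**
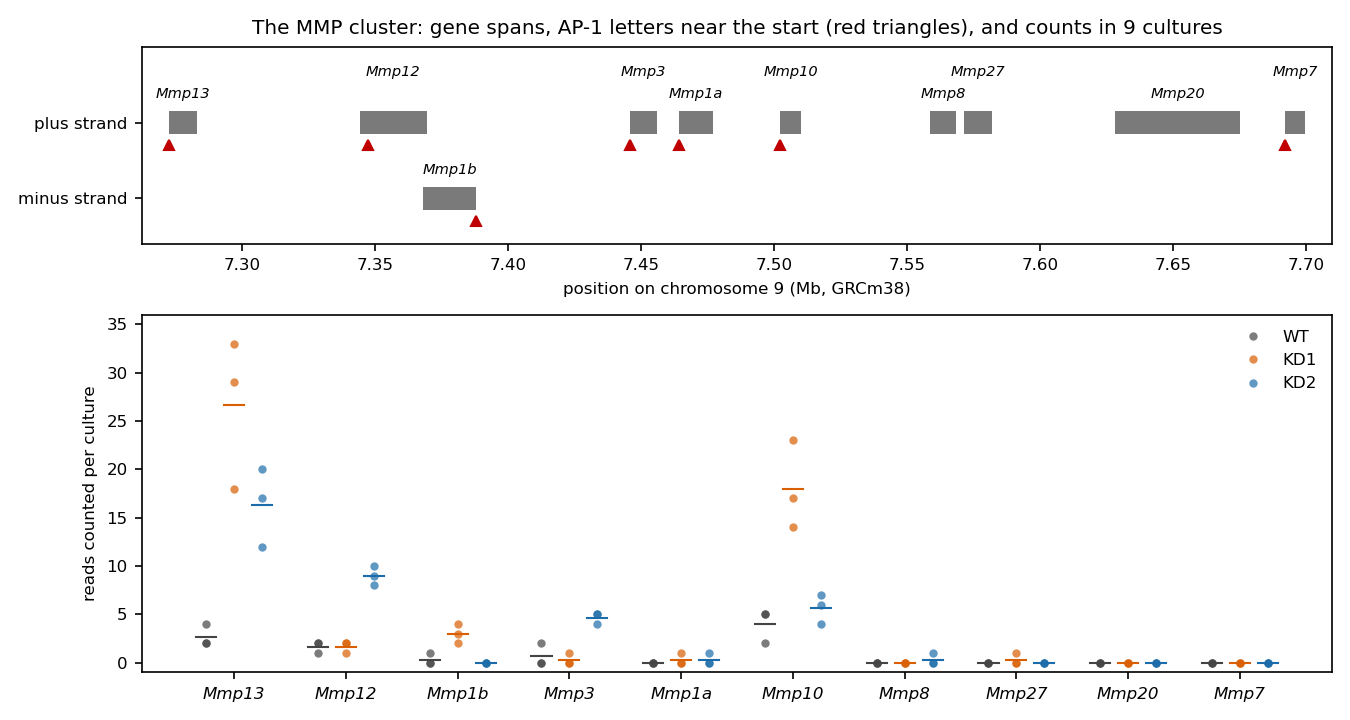
The MMP cluster of chromosome 9, with gene spans by position in Mb and by strand (top) and read counts per culture (bottom, a point for each of the 9 cultures and a bar for each mean of 3). Red triangles mark the letters TGAGTCA or TGACTCA near the start of 7 genes, and *Mmp13* lies between 2 and 4 counts in *WT*, 18 and 33 in *KD1*, and 12 and 20 in *KD2*.

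Promoter windows are shown for genes of this cluster, of which *Mmp13* was called higher in both lines and *Mmp10* in *KD1*. RefSeq windows of 250 bases before to 50 bases after a gene's start (GRCm38.p6) were at hand for 32 of the 46 members, all 10 cluster genes included. The letters TGAGTCA, or TGACTCA on the other strand, which AP-1 factors (dimers of Fos and Jun proteins) are known to bind, stood in the windows of 7 of the 10 cluster genes. They stood in none of the 22 members outside the cluster that had a window, and in 5.95% of all 27025 genes with one. The 7 were *Mmp1a*, *Mmp1b*, *Mmp3*, *Mmp7*, *Mmp10*, *Mmp12* and *Mmp13*, among them 2 with at most 1 count in any culture. A TATAAA on the gene's strand stood in 8 of the 10 cluster genes, in 2 of the 22 others and in 9.77% of all genes. The letters GGAAGT, a core bound by ETS factors, stood on either strand in 6 of the 10, in 3 of the 22 and in 26.5% of all genes. Such a match describes the letters only. In *Mmp12* the AP-1 letters and the TATAAA stood only in the window of a further RefSeq start inside the gene, the TATAAA after that start, and not in the window of its first start. Sequences follow, from 110 bases before to 20 bases after a RefSeq start on the plus strand, for the 4 cluster genes with the most counts, with the AP-1 letters in capitals.
*Mmp13*, chr9:7272404-7272533: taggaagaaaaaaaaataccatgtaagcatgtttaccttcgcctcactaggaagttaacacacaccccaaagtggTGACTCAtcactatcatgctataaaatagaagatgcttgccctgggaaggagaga
*Mmp12*, chr9:7347264-7347393: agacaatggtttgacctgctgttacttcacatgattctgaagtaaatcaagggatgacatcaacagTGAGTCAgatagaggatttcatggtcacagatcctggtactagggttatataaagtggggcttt
*Mmp3*, chr9:7445712-7445841: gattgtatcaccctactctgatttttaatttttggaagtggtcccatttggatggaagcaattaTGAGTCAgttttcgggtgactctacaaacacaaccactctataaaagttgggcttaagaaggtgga
*Mmp10*, chr9:7502232-7502361: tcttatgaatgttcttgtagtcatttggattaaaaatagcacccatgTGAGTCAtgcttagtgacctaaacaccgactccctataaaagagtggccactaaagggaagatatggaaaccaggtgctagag
The AP-1 letters began 35 bases before the start of *Mmp13*, 44 before a start of *Mmp12*, 46 before that of *Mmp3* and 63 before that of *Mmp10*.

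Of 16 genes for AP-1 and ETS factors, 15 were tested. In *KD1* 1 was called higher and none lower, and in *KD2* 1 was called higher and 1 lower, where 9.34% and 7.49% of all genes were called in *KD1* and 14.5% and 6.71% in *KD2*, with list medians of 0.18 and -0.22 on the log2 scale beside -0.03 and 0.01 for all genes. Set against *KD1*, *KD2* had 1 called higher and 4 lower, with a median of -0.40, beside 14.7% and 8.58% of all genes and a median of 0.02. *Elf3*, an ETS factor of epithelia, was the gene higher in *KD1*, at 10.5 ± 0.513 CPM (SD, n = 3) in *WT* and 27.8 ± 1.51 CPM in *KD1*. In *KD2*, *Etv1* stood at 1.26 ± 0.238 CPM, against 0.245 ± 0.0942 CPM in *WT*, and *Etv5* at 46.8 ± 2.23 CPM, against 122 ± 3.21 CPM. All genes of the list called against *WT* were thus ETS factors. No AP-1 gene tested, whether of the Fos, the Jun or another family, was called against *WT* in either line.

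*Mmp11*, a stromelysin that is activated inside the cell by furin, had 5.07, 5.84 and 5.22 CPM in *WT*, 5.02, 4.76 and 3.83 CPM in *KD1*, and 9.50, 8.75 and 10.8 CPM in *KD2*. The *KD2* cultures lay above all others. Its log2 fold change in *KD2* was 0.84 ± 0.127 (edgeR adjusted p = 4.9e-05), below the fold limit, and against *KD1* it was 1.09 ± 0.127 (edgeR adjusted p = 3.6e-06), which fell to 0.97 without *KD1* replicate 3. *Mmp11* overlaps *Chchd10* on the other strand over 155 bases, and that gene moved the opposite way, at -2.34 in *KD2*.

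Among the membrane-anchored MMPs, *Mmp14* was the main one in every group. *Mmp14*, which activates the precursor of MMP2 at the cell surface, had 188, 214 and 217 CPM in *WT*, 300, 304 and 283 CPM in *KD1*, and 155, 157 and 176 CPM in *KD2*. *KD1* lay above *WT* and *KD2* below it without overlap, yet neither passed the fold limit, with log2 fold changes of 0.52 ± 0.0698 (edgeR adjusted p = 2.2e-05) and -0.34 ± 0.0701 (edgeR adjusted p = 6.6e-04). The median for genes of chromosome 14, on which it lies, was -0.47 in *KD2*.

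*Mmp15*, a transmembrane MMP that can also activate the MMP2 precursor, had 13.9, 14.2 and 13.5 CPM in *WT*, 6.20, 5.50 and 6.53 CPM in *KD1*, and 9.90, 8.59 and 12.0 CPM in *KD2*. Both lines lay below *WT*, and *KD1* lower still. On the log2 scale the difference from *WT* was -1.19 ± 0.121 in *KD1* (edgeR adjusted p = 1.3e-06), and -0.46 ± 0.115 in *KD2* (edgeR adjusted p = 0.0028), which did not reach the fold limit. *Mmp17*, held in the membrane by a lipid anchor, had 16, 21 and 22 counts in *WT*, 3, 4 and 10 in *KD1*, and 31, 22 and 39 in *KD2*. Each *KD1* culture lay lower, with a log2 fold change of -2.02 ± 0.488 (edgeR adjusted p = 0.0028) that went to -2.72 without *KD1* replicate 3. The *KD2* cultures overlapped *WT*, at 0.46 ± 0.354 (edgeR adjusted p = 0.27). *Mmp23* had 4 to 18 counts per culture and was called in no comparison.

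*Mmp19* and *Mmp28* are secreted MMPs outside the classic groups. *Mmp19*, which cuts several basement membrane proteins, had 16, 13 and 10 counts in *WT*, 36, 32 and 39 in *KD1*, and 172, 164 and 125 in *KD2*. The groups did not overlap, and the order ran from *WT* through *KD1* to *KD2*. The log2 fold change was 1.20 ± 0.25 in *KD1* (edgeR adjusted p = 9.9e-04) and 3.35 ± 0.205 in *KD2* (edgeR adjusted p = 7.0e-09). *Mmp19* shares 28.3% of its exon bases with genes on the other strand, mostly *Tmem198b*, which was not called (0.32 in *KD1* and 0.63 in *KD2*). Since the sources used here do not say whether strand was used in counting, reads from such pairs could not be told apart.

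*Mmp28*, known as epilysin from its presence in epithelia, had 23.4, 25.5 and 23.7 CPM in *WT*, 18.9, 17.1 and 16.9 CPM in *KD1*, and 9.90, 9.45 and 12.9 CPM in *KD2*. Here the order ran downwards, without overlap of any groups. On the log2 scale the difference from *WT* was -0.46 ± 0.101 in *KD1* (edgeR adjusted p = 0.0015), short of the fold limit, and -1.18 ± 0.107 in *KD2* (edgeR adjusted p = 3.3e-07). The gene *1700020L24Rik* overlaps 12.0% of its exon bases on the other strand and stood at -0.48 and -0.98 in the same comparisons.

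**Figure D3:**
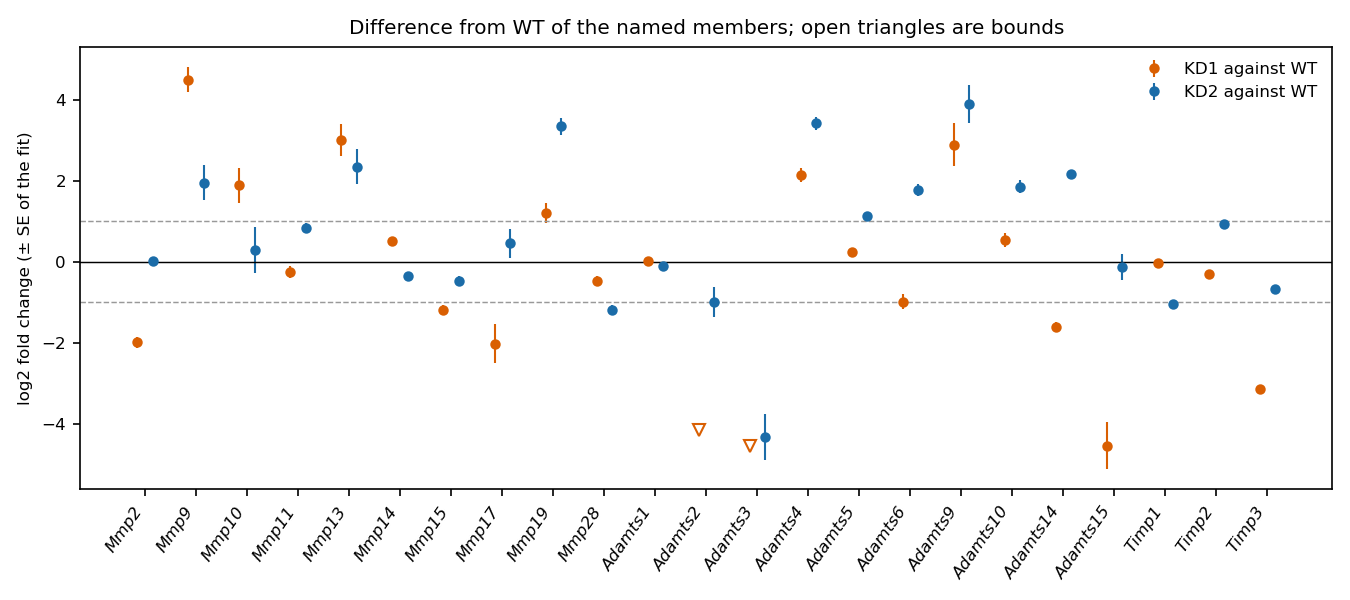
Log2 fold change of the 23 members named by rule in *KD1* and *KD2* against the same *WT* cultures, with bars for the SE of the fit over 9 cultures and dashed lines at -1 and 1. Open triangles are bounds for *Adamts2* and *Adamts3*, which had 0 counts in *KD1*, and *Adamts14* lies at -1.61 in *KD1* and 2.17 in *KD2*.

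The ADAMTS proteases that cut hyalectans, large proteoglycans such as aggrecan and versican, were led by *Adamts1*. Its level was 937, 836 and 826 CPM in *WT*, 894, 863 and 878 CPM in *KD1*, and 822, 834 and 792 CPM in *KD2*, so that *WT* overlapped both lines. The log2 fold changes of 0.02 ± 0.0569 in *KD1* (edgeR adjusted p = 0.79) and -0.09 ± 0.0569 in *KD2* (edgeR adjusted p = 0.19) were within the replicate spread. Its neighbour on chromosome 16, *Adamts5*, a main aggrecanase of mouse cartilage, had 38.0, 33.2 and 33.3 CPM in *WT*, 42.5, 41.4 and 39.6 CPM in *KD1*, and 81.3, 77.7 and 69.8 CPM in *KD2*. *KD2* stood well above the others, with a log2 fold change of 1.13 ± 0.0749 (edgeR adjusted p = 1.5e-08), while in *KD1* it was 0.24 ± 0.076 (edgeR adjusted p = 0.014), short of the fold limit.

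*Adamts4*, another aggrecanase, had 19, 20 and 19 counts in *WT*, 114, 96 and 96 in *KD1*, and 231, 265 and 225 in *KD2*. The groups were far apart, with log2 fold changes of 2.14 ± 0.175 in *KD1* (edgeR adjusted p = 1.4e-07) and 3.43 ± 0.159 in *KD2* (edgeR adjusted p = 4.9e-10). In *KD2* it reached 2.03 ± 0.245 RPKM (SD, n = 3), from 0.187 RPKM in *WT*.

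*Adamts9*, which cuts versican and aggrecan, had 3, 2 and 0 counts in *WT*, 14, 19 and 14 in *KD1*, and 34, 39 and 19 in *KD2*. Both lines lay above *WT*. Over summed counts, the ratio to *WT* was 7.90 in *KD1* (exact 95% interval 3.16 to 25.5, for counting error only) and 15.9 in *KD2* (6.58 to 50.2). The fitted log2 fold changes of 2.90 ± 0.535 (edgeR adjusted p = 3.6e-04) and 3.90 ± 0.467 (edgeR adjusted p = 5.4e-06) went to 3.65 and 4.64 without *WT* replicate 1. Between the lines the value was 1.00 ± 0.291 (edgeR adjusted p = 0.0077), just short of the limit before rounding. It passed the limit without *KD1* replicate 2 (1.16), without *KD2* replicate 3 (1.13) and with scaling by library size alone (1.12).

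*Adamts15*, a hyalectan-cutting protease of the same group, went the other way in *KD1*. It had 14, 39 and 33 counts in *WT*, 3, 0 and 1 in *KD1*, and 24, 33 and 33 in *KD2*. Only *KD1* stood apart, near 0, with a ratio of *WT* to *KD1* of 25.6 over summed counts (exact 95% interval 9.63 to 96.0, for counting error only). The log2 fold change was -4.54 ± 0.581 in *KD1* (edgeR adjusted p = 1.4e-05), or -5.71 without *KD1* replicate 1, and -0.12 ± 0.319 in *KD2* (edgeR adjusted p = 0.75). Within the group of hyalectan-cutting proteases, then, *KD1* had more *Adamts4* and *Adamts9* and less *Adamts15*, while *KD2* had more *Adamts4*, *Adamts5* and *Adamts9*.

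The procollagen N-proteinases *Adamts2*, *Adamts3* and *Adamts14*, which remove the amino-terminal propeptide of fibrillar procollagens, were all lower in *KD1*. *Adamts2* had 8, 16 and 21 counts in *WT*, none in any *KD1* culture, and 10, 9 and 7 in *KD2*. Against a floor of 3 counts over the group, *KD1* was at least 17.8-fold lower than *WT* (edgeR adjusted p = 2.8e-05). In *KD2* the log2 fold change was -0.99 ± 0.381 (edgeR adjusted p = 0.038), which did not reach the fold limit. It ranged from -1.23 without *WT* replicate 1, where it was called, to -0.60 without *WT* replicate 3, and it was also called without a filter (-1.02). The adjusted p was above 0.05 when any single *KD2* culture, *WT* replicate 2 or *WT* replicate 3 was left out. The same held with scaling by library size alone and with DESeq2. *Adamts3* had 17, 28 and 14 counts in *WT*, none in *KD1*, and 1, 0 and 2 in *KD2*. This made *KD1* at least 23.4-fold lower than *WT* (edgeR adjusted p = 1.2e-05), and the ratio of *WT* to *KD2* was 22.7 over summed counts (exact 95% interval 7.41 to 113, for counting error only; edgeR adjusted p = 3.2e-05). The fitted log2 fold change of *Adamts3* in *KD2*, -4.33, went to -5.26 without *KD2* replicate 3 and to -3.65 without *KD2* replicate 2.

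*Adamts14* differed from these by moving in opposite directions in the lines. It had 15.9, 17.1 and 17.0 CPM in *WT*, 5.72, 5.50 and 5.16 CPM in *KD1*, and 67.9, 66.7 and 90.8 CPM in *KD2*. The groups lay far apart, with log2 fold changes of -1.61 ± 0.132 in *KD1* (edgeR adjusted p = 1.6e-07) and 2.17 ± 0.109 in *KD2* (edgeR adjusted p = 1.1e-09). At 14.5 ± 2.61 RPKM (SD, n = 3) it ranked next to *Adamts1* among the ADAMTS proteases of *KD2*, whereas in *WT* it stood at 3.20 RPKM beside *Adamts5* at 3.23 RPKM.

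*Adamts6* and *Adamts10*, which are related in sequence and are linked to fibrillin microfibrils, were both higher in *KD2*. *Adamts6* had 2.92, 2.20 and 2.39 CPM in *WT*, 1.40, 1.22 and 1.13 CPM in *KD1*, and 8.08, 9.49 and 7.72 CPM in *KD2*. *KD1* lay below *WT* and *KD2* above it, with log2 fold changes of -0.99 ± 0.185 (edgeR adjusted p = 4.1e-04) and 1.77 ± 0.145 (edgeR adjusted p = 1.3e-07). The value in *KD1* sat at the fold limit, and it passed without *WT* replicate 2 (-1.06), without *KD1* replicate 1 (-1.07) and with scaling by library size alone. The median for genes of chromosome 13, on which *Adamts6* lies, was -0.66 in *KD2*, and any link between these values was not tested. *Adamts10* had 2.10, 2.64 and 2.83 CPM in *WT*, 3.69, 3.93 and 3.47 CPM in *KD1*, and 7.36, 9.29 and 11.2 CPM in *KD2*. Both lines lay above *WT*, but only *KD2* passed the fold limit, at 1.86 ± 0.168 (edgeR adjusted p = 3.3e-07), against 0.54 ± 0.184 in *KD1* (edgeR adjusted p = 0.021).

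Other tested ADAMTS proteases were called in no comparison. *Adamts7* and *Adamts12*, known to cut cartilage oligomeric matrix protein, had 38 to 121 and 53 to 146 counts per culture. Their log2 fold changes were 0.10 and 0.91 in *KD1*, and 0.74 and 0.68 in *KD2*. *Adamts12* passed the fold limit in *KD1* when *WT* replicate 2 or *KD1* replicate 1 was left out, which made 7 members higher in *KD1*. Of all genes, 9.58% and 9.18% were called higher in *KD1* in those fits.

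In *WT*, *Timp2*, *Timp1* and *Timp3* were 3 of the 4 most abundant members per length, and each had its own pattern. *Timp3*, which stays bound to the matrix and inhibits some ADAM and ADAMTS proteases as well as MMPs, had 1256, 1162 and 1100 CPM in *WT*, 135, 131 and 132 CPM in *KD1*, and 772, 742 and 699 CPM in *KD2*. Both lines lay below *WT*, *KD1* by far the most. On the log2 scale the difference from *WT* was -3.15 ± 0.0653 in *KD1* (edgeR adjusted p = 1.0e-13) and -0.67 ± 0.06 in *KD2* (edgeR adjusted p = 3.1e-07), the latter short of the fold limit. *KD2* was higher than *KD1* by 2.48 ± 0.0636 (edgeR adjusted p = 4.1e-13). *Timp3* lies within *Syn3*, which is on the other strand, shares 21.3% of its exon bases and had 23 to 60 counts per culture, where *Timp3* had 3267 to 29046.

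*Timp2*, which inhibits MMPs and also forms the complex with MMP14 that docks the MMP2 precursor, had 1149, 1301 and 1252 CPM in *WT*, 993, 1032 and 966 CPM in *KD1*, and 2326, 2292 and 2504 CPM in *KD2*. *KD1* lay a little below *WT* and *KD2* well above it. The log2 fold change was -0.31 ± 0.0582 in *KD1* (edgeR adjusted p = 4.4e-04) and 0.94 ± 0.0586 in *KD2* (edgeR adjusted p = 7.9e-09), neither past the fold limit. In *KD2* the limit was passed without *WT* replicate 2 (1.01), with scaling by library size alone (1.05) and over genes with at least 10 counts in every culture (1.01). Between the lines the difference was 1.25 ± 0.059 (edgeR adjusted p = 2.7e-10).

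*Timp1*, a soluble inhibitor that acts poorly on MMP14, had 134, 136 and 146 CPM in *WT*, 137, 141 and 133 CPM in *KD1*, and 65.0, 62.4 and 73.1 CPM in *KD2*. *KD1* overlapped *WT*, and *KD2* lay below both. On the log2 scale the difference from *WT* was -0.02 ± 0.0664 in *KD1* (edgeR adjusted p = 0.85) and -1.05 ± 0.0681 in *KD2* (edgeR adjusted p = 1.2e-08). The call in *KD2* sat at the fold limit and was lost without *WT* replicate 3 (-0.99), with scaling by library size alone (-0.94) and over genes with at least 10 counts in every culture (-0.98). *KD2* against *KD1* gave -1.04 ± 0.0679 (edgeR adjusted p = 8.9e-09), which went to -0.99 without *KD2* replicate 2 and to -0.91 with scaling by library size alone. *Timp1* lies on the X chromosome, whose genes had a median of -0.63 in *KD2* and -0.09 in *KD1*.

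Summed per length, TIMP RNA came to 600, 630 and 621 RPKM in the *WT* cultures, 426, 440 and 414 RPKM in *KD1*, and 765, 750 and 811 RPKM in *KD2*. The sums did not overlap, with *KD1* lowest and *KD2* highest. MMP RNA summed to 46.9, 53.0 and 52.8 RPKM in *WT*, 62.1, 61.4 and 58.8 RPKM in *KD1*, and 42.1, 40.4 and 47.3 RPKM in *KD2*, most of it *Mmp14*. Without *Mmp14* the MMP sum was 16.3 ± 0.849 RPKM (SD, n = 3) in *WT*, 11.1 ± 0.669 RPKM in *KD1* and 16.0 ± 1.83 RPKM in *KD2*, so that without this gene *KD1* had the lowest sum. The ratio of the TIMP sum to the MMP sum was 12.1 ± 0.556 (SD, n = 3) in *WT*, 7.02 ± 0.152 in *KD1* and 17.9 ± 0.72 in *KD2*, a ratio of RNA and not of proteins or their activity. *Timp3* made up 23.4% of the TIMP sum in *WT*, 3.82% in *KD1* and 11.7% in *KD2*, while *Timp2* made up 51.3%, 60.0% and 78.6%. The whole ADAMTS sum, most of it *Adamts1*, was 172 ± 11.7, 173 ± 2.93 and 181 ± 1.81 RPKM in *WT*, *KD1* and *KD2*. Without *Adamts1* it was 8.27 ± 0.159 RPKM in *WT*, 7.30 ± 0.212 RPKM in *KD1* and 27.1 ± 2.56 RPKM in *KD2*, where *Adamts14* and *Adamts5* led.

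The 20 members that did not pass the filter are given by their counts. *Mmp7* and *Mmp20* had no count in any culture, and 12 of the 20, these included, had at most 3 counts in each. Besides those named above, that group held *Adamts8*, *Adamts18*, *Adamts19*, *Adamts20*, *Mmp16*, *Mmp25* and *Timp4*. Above 3 counts in some culture were 8, of which *Mmp24* was highest, at 26 counts in *KD1* replicate 1 and 2 to 10 in the other cultures. *Adamts16* had 1, 0 and 1 counts in *WT*, 0, 3 and 2 in *KD1*, and 7, 13 and 10 in *KD2*, a ratio of *KD2* to *WT* of 13.0 over summed counts (exact 95% interval 3.29 to 112). It was tested and called higher in *KD2* when any single culture other than *KD2* replicate 2 or 3 was left out, which lets lower counts pass the filter. Without a filter, and with DESeq2, *Adamts16* was also called higher in *KD2*, and without a filter *Mmp24* and *Adamts13* were called higher in *KD1*. For *Mmp24* the *KD1* cultures, at 26, 8 and 9 counts, overlapped *WT*, at 2, 10 and 5. *BC029722* on the other strand overlaps 13.6% of the exon bases of *Mmp24*. The highest counts of *Adamts13*, *Adamts17* and *Mmp21* were 5, 4 and 4.

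Genes that act on these proteases were examined as lists. Of 13 genes of plasminogen activation, which makes the plasmin that can activate MMP precursors, 10 were tested. In *KD1* 5 were called higher and none lower, and in *KD2* none was called higher and 2 lower, beside shares of all genes of 9.34% higher and 7.49% lower in *KD1*, and 14.5% and 6.71% in *KD2*. Set against *KD1*, *KD2* had none higher and 4 lower (14.7% and 8.58% of all genes), with a median of -0.62. These shares and the medians of all genes apply to each list below. The list's median log2 fold change was 0.76 in *KD1* and 0.02 in *KD2*, beside -0.03 and 0.01 for all genes. *Plau*, the gene of urokinase, had 940, 1394 and 1118 counts in *WT*, 8865, 8632 and 8133 in *KD1*, and 510, 746 and 490 in *KD2*. *KD1* was far above *WT*, and *KD2* below it, with log2 fold changes of 2.65 and -1.19. *Serpinb2*, an inhibitor of urokinase, moved the same ways, at 3.69 in *KD1* and -3.64 in *KD2*. *Plat*, the tissue activator, stood at 1.47 in *KD1*, where it was called, and at 0.93 in *KD2* (edgeR adjusted p = 4.3e-08), short of the fold limit, and the lines did not differ by the call rule (-0.54).

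Of 17 activators, docking proteins and other inhibitors, 12 were tested. For *KD1*, 2 were called higher and 4 lower, and for *KD2*, 4 were higher and 2 lower. The medians were -0.13 and 0.28. Between the lines 5 were higher in *KD2* and 1 was lower. *Reck*, a membrane-bound inhibitor of MMPs, had 49, 64 and 50 counts in *WT*, 17, 22 and 26 in *KD1*, and 308, 351 and 223 in *KD2*. Like *Timp3* it was lower in *KD1*, at -1.57, but in *KD2* it was higher than *WT*, at 2.22. *Lcn2*, whose protein binds MMP9, was higher in both lines, at 2.59 in *KD1* and 3.98 in *KD2*. *Pcsk6*, a proprotein convertase, was lower in both, at -2.56 and -2.06. *Pcsk5*, a related convertase, had 20, 15 and 13 counts in *WT*, a single count over the 3 *KD1* cultures, and 5, 4 and 11 counts in *KD2*. The ratio of *WT* to *KD1* was 57.1 over summed counts, with a wide exact 95% interval from 9.77 upwards, and the log2 fold change in *KD2* was -1.45.

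Related protease families are given beside the same shares of all genes. Of 12 ADAM proteases, 9 were tested, with 2 called higher in *KD1* and 1 in *KD2*, none lower, and medians of 0.23 and 0.35, and between the lines 2 were higher and 2 lower in *KD2*. *Adam8* went from 49.0 ± 2.36 CPM (SD, n = 3) in *WT* to 251 ± 4.39 CPM in *KD1*, and *Adam19* from 1, 2 and 4 counts in *WT* to 69, 103 and 81 in *KD1*. In *KD2* *Adam22* was the gene called, at 1.76. Of 5 astacin proteases 1 was tested and not called. Of 11 cathepsins and cystatins 9 were tested, with none called for *KD1*, 1 called higher for *KD2* and 2 lower, and medians of 0.33 and -0.17, and between the lines the counts were 1 and 2. *Ctsz* fell from 782, 958 and 860 counts in *WT* to 12, 18 and 10 in *KD2*, *Ctsc* stood at -1.15 on the log2 scale, and *Cst3*, an inhibitor of cysteine cathepsins, at 1.43.

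ADAMTS-like proteins resemble ADAMTS proteases but lack the catalytic domain. Of 7 such genes 5 were tested, with 2 called lower in *KD1* and 3 higher in *KD2*, and medians of -0.99 and 1.05, and between the lines 3 were higher in *KD2*. *Adamtsl3* had 233, 253 and 214 counts in *WT*, 3, 2 and 3 in *KD1*, and 596, 692 and 402 in *KD2*. The gene was nearly absent from *KD1* and above *WT* in *KD2*, with log2 fold changes of -6.64 and 1.05. *Thsd4* was lower in *KD1*, at -1.63, and *Adamtsl5* was higher in *KD2*, at 1.21. *Papln* had 6, 1 and 0 counts in *WT*, 2, 1 and 1 in *KD1*, and 30, 37 and 18 in *KD2*, a ratio of *KD2* to *WT* of 10.5 over summed counts (exact 95% interval 4.89 to 26.9, for counting error only), with 6 of the 7 *WT* counts in replicate 1.

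Matrix substrates of these proteases included several that were far lower in *KD1*. Of 20 such genes 11 were tested. For *KD1*, 1 was called higher and 6 lower, and for *KD2*, 4 were higher and 1 lower. Between the lines 7 were higher in *KD2* and 1 was lower. The list's median log2 fold change was -2.79 in *KD1* and 0.34 in *KD2*, and the former was the same with *Col1a2*, which had 0 counts in *KD1*, set at its bound. *Acan*, the gene of aggrecan, had 2587, 4716 and 3382 counts in *WT*, 12, 14 and 7 in *KD1*, and 1748, 2177 and 1418 in *KD2*. Only a trace was left in *KD1*, with log2 fold changes of -8.55 in *KD1* and -1.19 in *KD2*. The fibrillar collagens named here had fewer counts in *KD1* than in *WT*. *Col3a1* had 59, 80 and 59 counts in *WT* and 0, 1 and 0 in *KD1*, a ratio of 235 with an exact 95% interval from 41.8 upwards. In *KD1*, *Col1a2* was at least 30.9-fold lower than in *WT*, while in *KD2* its log2 fold change was 1.38. *Col2a1* had 149, 279 and 205 counts in *WT*, 14, 11 and 11 in *KD1*, and 1355, 1672 and 1366 in *KD2*.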

How the data were processed

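The authors deposited raw read counts per gene. Per the submitters' processing notes and the methods, reads had been trimmed with fastp, mapped to GRCm38 with HISAT2 and counted with featureCounts, and whether strand was used is not given in the sources used here. Counts were tested with edgeR 4.0.16 in R 4.3.3 (TMM scaling, filterByExpr, quasi-likelihood fit of 9 cultures, Benjamini-Hochberg adjustment, SE as the log2 fold change over the square root of F), after a check on simulated data, with DESeq2 1.42.0, other scalings and filters, pairing by number and leaving out each culture as alternatives. Gene positions and exon lengths came from GENCODE for GRCm38, in another release than the study's. Named are members called in any of the 3 comparisons, the 6 highest in *WT* by RPKM, and up to 4 called genes of each list. Members and lists were chosen with earlier results of these data known. Folds against a group at 0 use a floor of 3 counts over the group's pooled libraries, and intervals cover counting error only.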

Additional observations from a re-analysis of the deposited data

Results flagged for a closer look

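The members below differed between *KD2* and *KD1* by the test of that contrast (edgeR, adjusted p under 0.05 and a log2 fold change above 1 or below -1). The lines were grown from single clones, so that a difference between lines cannot be told apart from one between clones.

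Higher in *KD2* than in *KD1* were *Mmp17* (2.48) and *Mmp2* (2.00), which were below *WT* in *KD1*, *Mmp11* (1.09), which was called against *WT* in neither line, and *Mmp19* (2.15), which was above *WT* in both. Of the ADAMTS proteases, *Adamts15* (4.42), *Adamts14* (3.78), *Adamts6* (2.75), *Adamts10* (1.32) and *Adamts4* (1.29) were higher in *KD2* on the log2 scale, and *Adamts2* was at least 8.92-fold higher, since *KD1* had no count. Leaving out *KD1* replicate 3 moved *Mmp17* to 3.17 and *Mmp11* to 0.97, and leaving out *KD1* replicate 1 moved *Adamts15* to 5.59. *Timp3* (2.48) and *Timp2* (1.25) were the inhibitors with more RNA in *KD2*.

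Lower in *KD2* than in *KD1* were *Mmp9* (-2.54), *Mmp10* (-1.60) and *Timp1* (-1.04). *Mmp9* was above *WT* in both lines, *Mmp10* in *KD1*, and *Timp1* was below *WT* in *KD2*. Without *KD2* replicate 2 the value of *Timp1* for *KD2* against *KD1* was -0.99, short of the fold limit.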

How the results depend on the processing

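Of 41 called values of single members, 38 kept their call in every alternative that gave a value, and none changed sign. With at least 10 counts required in every culture, the counts went from 6 to 2 (higher) and 8 to 4 (lower) in *KD1*, and from 3 to 1 for members lower in *KD2* than in *WT* and than in *KD1*, of 17 members tested. The shares of all genes under this filter were 6.23% and 4.5% in *KD1*, 4.27% lower in *KD2* than in *WT* and 5.96% lower than in *KD1*. Members with fewer counts in some culture were removed by this filter, whereas *Timp1* stayed in and went to -0.98 in *KD2*, short of the fold limit. Members higher in *KD2* went from 9 to 7 against *WT*, with *Timp2* added, and from 12 to 9 against *KD1* (9.54% and 9.6% of all genes). Without a filter, members higher than *WT* went from 6 to 8 in *KD1* (*Adamts13* and *Mmp24* added) and from 9 to 12 in *KD2* (*Adamts16*, *Mmp12* and *Mmp3*), and members lower in *KD2* went from 3 to 4 against *WT* (*Adamts2*) and from 3 to 5 against *KD1* (*Mmp1b* and *Mmp24*). Of all 31678 genes then tested, 6.02% were higher in *KD1*, and 9.96% were higher and 4.28% lower in *KD2*. Against *KD1*, 5.69% were lower in *KD2*. Members higher in *KD2* than in *KD1* went from 12 to 15 without a filter and with DESeq2 (*Adamts16*, *Mmp12* and *Mmp3*), beside 9.91% and 11.5% of all genes. DESeq2 also gave 11 members higher in *KD2* than in *WT* (*Adamts16* and *Mmp12* added) and 4 lower than in *KD1* (*Mmp24*), beside 11.6% and 6.59% of all genes. With library size alone, members lower in *KD1* than in *WT* went from 8 to 9 (*Adamts6* added), those in *KD2* from 9 to 10 higher (*Timp2*) and from 3 to 2 lower (*Timp1* lost), and those of *KD2* against *KD1* from 12 to 15 higher (*Adamts5*, *Adamts9* and *Mmp23*) and from 3 to 2 lower (*Timp1* lost). With this scaling 7.62% of all genes were lower in *KD1*, and 16.2% were higher and 5.59% lower in *KD2*. Against *KD1*, 16.8% were higher and 7.33% lower in *KD2*. Leaving out 1 culture gave 6 to 7 members higher and 8 to 9 lower in *KD1*, 9 to 11 and 2 to 4 in *KD2*, and 13 to 14 and 2 to 4 between the lines, where *Adamts16* passed the filter in most of these fits. The shares of all genes were then 9.06% to 9.91% higher and 7.07% to 7.52% lower in *KD1*. In *KD2* they were 14.4% to 15.3% and 6.26% to 6.78%, and between the lines 14.8% to 15.4% and 8.49% to 8.98%.

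Values near 0 that were not called changed sign. *Timp1* in *KD1* went from -0.02 to 0.01 with median-of-ratios scaling, 0.02 with the stricter filter, 0.02 in a fit of only the 6 cultures compared, and -0.04 to 0.04 over cultures left out. *Adamts1* went to 0.02 in *KD2* against *WT* and against *KD1* with library size alone. *Mmp2* in *KD2* went to -0.02 without a filter. Over cultures left out, *KD2* against *WT* ranged from -0.08 to 0.11 for *Mmp2*, -0.40 to 0.06 for *Adamts15*, -0.11 to 0.63 for *Mmp10* and -0.04 to 0.13 for *Vangl2*.

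Same-numbered cultures did not deviate together (r from -0.0652 to 0.0789 over 9 pairs), so the numbers were not taken to pair them. With the replicate block, 6 members were higher and 8 lower in *KD1*, 9 and 3 in *KD2*, and 13 and 3 between the lines. The shares of all genes with the block were 9.34% and 7.45%, 14.5% and 6.69%, and 14.7% and 8.6% in that order. Members with few counts were limited by depth, since 3 counts were 0.0999 to 0.154 CPM.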
